A study of Mus musculus with 3 samples.

Results

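Cell cycle and proliferation genes were examined in RNA pulled down from the mouse heart with ribosomes that were tagged in endothelial cells. The set holds 41 genes of DNA replication, of the transition from G1 to S phase and of mitosis, together with the D-type cyclins and the Cip/Kip inhibitors, and was chosen by gene symbol for these roles. All 41 were present among the 17583 genes of the table, all had a mean normalized count of at least 50 over the mice, and the lowest value of any of them in a mouse was 96. A cell enters the cycle when cyclin D kinases phosphorylate the retinoblastoma protein and release E2F transcription factors, which switch on cyclin E and the genes that copy DNA. Genes of mitosis follow in G2 phase and are switched on through the MuvB complex with B-Myb and FoxM1. Most endothelial cells of the adult heart rest outside the cycle, and endothelial division is known to resume after cardiac injury.

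The libraries came from 3 EC-RiboTag mice, labelled as biological replicates of a single condition. The genotype was Cdh5-CreERT2;Rpl22tm1.1Psam: an inducible Cre recombinase driven by the Cdh5 promoter, which is active in endothelial cells, switches the ribosomal protein gene Rpl22 to a form with a hemagglutinin tag. Cre had been induced before use, hearts were perfused with cycloheximide to hold ribosomes on their messages, and tagged ribosomes were pulled down with antibody-coated beads. According to the labels, hearts were taken 7 days after coronary ligation, and the titles carry the letters Rz without spelling them out. The study uses RZ for the remote zone of infarcted hearts and describes RNA of tagged ribosomes taken from that zone for PCR, but it does not name a zone for its sequenced RiboTag libraries, so whether these come from that zone or from whole hearts was not settled here. The labels give neither age nor sex, and the study's methods describe adult mice, male and female. No input library and no library without ligation was analysed here, so each value is a level within the immunoprecipitate, and nothing can be said of a change after infarction. The deposited values are normalized counts rounded to whole numbers, which summed to 7149102, 7158585 and 7268785 in mice 1, 2 and 3. From the whole numbers that rounding skips or doubles, the worth of a single read in normalized counts was put at 0.977, 1.06 and 0.961, respectively. The authors removed duplicate reads, which for reads from a single end can hold down counts of genes with many reads per kilobase. Levels and differences between mice carry this limit, whose size was not tested.

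Markers of endothelial cells were high and even. All 10 were listed, their coefficients of variation (CV, the SD as a percentage of the mean) lay between 2.05% and 8.41%, and Cdh5 itself had 2808, 2860 and 2930 normalized counts in mice 1, 2 and 3. The summed level of the list was 24959, 23785 and 23825, with Flt1 as its most abundant gene. Cardiomyocyte markers were also well represented. All 8 were listed, and their median level per kilobase of transcript was 615 ± 32.0 (SD, n = 3 mice) against 676 ± 15.9 for the endothelial list. Their summed level was 15966, 16442 and 18522, and Ttn, which has a very long transcript, was the most abundant with 7379, 7743 and 10190. Of the 8 markers, 6 were lower in mouse 3 than in mouse 2 (53.5% of all genes), and only Ttn and Tnnt2 were higher. Tnnt2 is named after its values were seen. RNA of cardiomyocyte genes was thus present beside that of endothelial genes, and the cell type behind a value was not tested. Removal of duplicate reads can hold down the levels per kilobase of both lists, so near values need not mean near abundance. The study compared markers of cell types between pull-down and input by PCR, and no input library was analysed here.

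Mouse 1 stood apart from mice 2 and 3 in sex-linked genes. Xist, the RNA that coats the inactive X chromosome, had 4, 618 and 869 normalized counts in mice 1, 2 and 3, and Ddx3y, a gene of the Y chromosome, had 1080, 3 and 1. Both were chosen after their values were seen. This is the pattern of a male for mouse 1 and of females for mice 2 and 3, though the labels do not give the sex. With these mice, sex cannot be told apart from any other difference between mouse 1 and the others. The count of members with a CV over 20% and the ratios of the D cyclins and Cip/Kip inhibitors to mitosis are given below with and without mouse 1.

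The cell cycle genes varied more between mice than most genes did. Their CV exceeded 20% for 32 of 41 members, against 14.9% of all 11956 genes that reached a mean of 50, and its median was 27.7% against 8.48% for all of these genes. Mouse 1 had the lowest value of 37 members (33.2% of all genes), mouse 2 of 2 members (29.1%) and mouse 3 of 2 members (36.6%). Mouse 2 had the highest value of 37 members (31.8% of all genes), whereas mouse 1 and mouse 3 each had that of 2 (37.0% and 30.2%). The value in mouse 1 was at least 1.5-fold below the mean of the other mice for 25 members (6.18% of all genes). No member met this rule in mouse 2 (2.49% of all genes) or in mouse 3 (0.644%). In the other direction, 12 members were at least 1.5-fold above the mean of the others in mouse 2 (253 of the 11956 genes). In mouse 3 there were 0 such members (379 genes). Mouse 1 is part of the mean of the others here, as it is for the deviations of mice 2 and 3 given below. Between mice 2 and 3 alone, the log2 of mouse 3 over mouse 2 ran from -0.38 to 0.18 over the members. Without mouse 1, no member had a CV over 20% (8.95% of all genes). Without mouse 2 there were 27 (16.3%) and without mouse 3 there were 35 (15.3%). Mouse 3 nevertheless lay below mouse 2 for 38 members, against 53.5% of all genes, with a median log2 difference of -0.21. In bulk RNA, fewer dividing cells and less of these messages per cell cannot be told apart. The low values of mouse 1 also cannot be told apart from its sex.

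**Figure D1:**
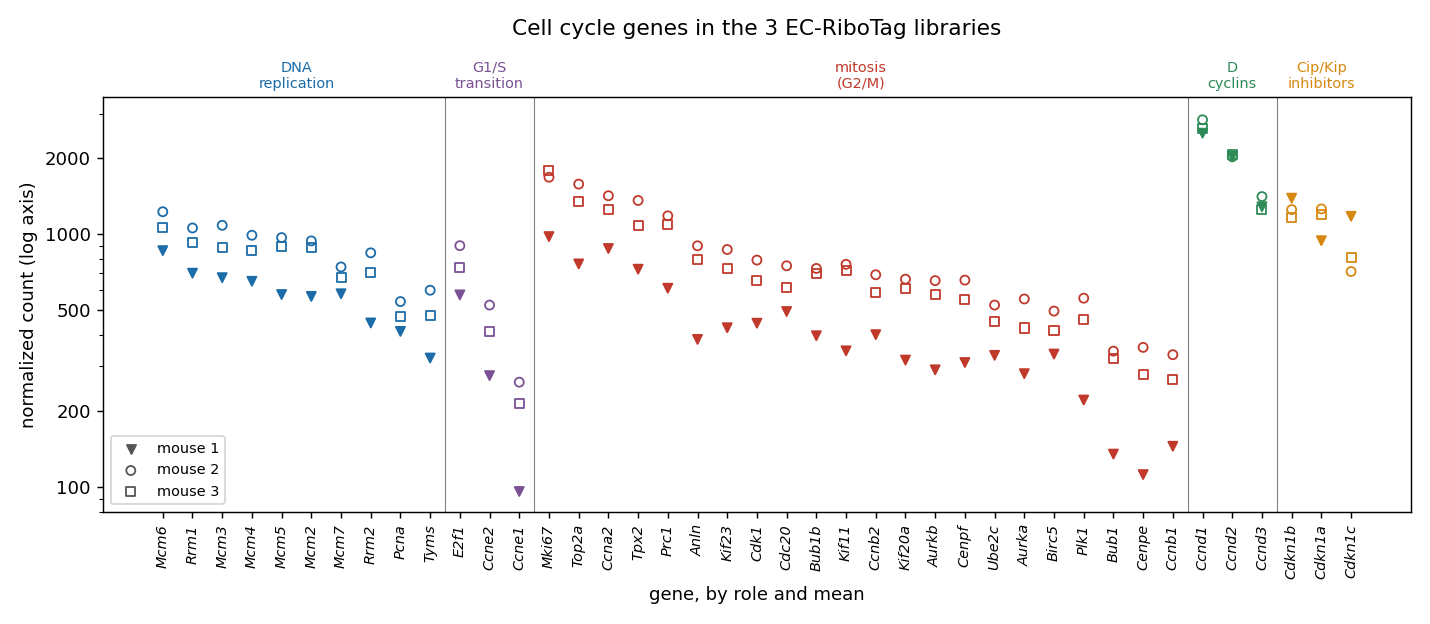
Normalized counts of the 41 cell cycle genes (log axis) in mouse 1 (filled triangles), mouse 2 (circles) and mouse 3 (squares), arranged by role and, within a role, by mean. Mouse 1 is lowest for all 35 genes of replication, of the transition to S phase and of mitosis, and lies close to the others for the D cyclins.

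The machinery of DNA replication was low in mouse 1 and highest in mouse 2 for all 10 of its members. The 6 subunits of the MCM helicase, which unwinds DNA at the fork, had means between 667 (Mcm7) and 1051 (Mcm6). Mcm2 (ENSMUSG00000002870; minus strand, chr6:88860456-88875762 in GRCm39) had 568, 942 and 888 normalized counts in mice 1, 2 and 3, a mean of 799 ± 202 (SD, n = 3). Mcm5 was similar, with 578, 971 and 898. Mcm7 differed least among the 6 subunits, with 582, 743 and 677 and a CV of 12.1%. Subunits of a single complex thus differed in how far mouse 1 lay below the others, from 1.22-fold for Mcm7 to 1.62-fold for Mcm5.

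Pcna, the sliding clamp that holds DNA polymerase on its template, had 413, 542 and 474 normalized counts, with a CV of 13.5%. Enzymes that supply nucleotides spread more widely. Rrm2, the regulatory subunit of ribonucleotide reductase, which is made mainly in S phase, had 446, 845 and 705 normalized counts, and mouse 1 lay 1.74-fold below the mean of the others. Its partner Rrm1, the longer-lived catalytic subunit, had 702, 1060 and 926, a 1.41-fold difference. Tyms, which makes thymidylate, had 324, 601 and 479, a 1.67-fold difference. Of the windows of 72 bases in the Tyms transcript, 5.51% occur a further time in the genome without a mismatch, where the removal of multi-mapping reads can lower its count. The replication list as a whole had a median log2 deviation of -0.53 in mouse 1, 0.39 in mouse 2 and 0.06 in mouse 3, each taken against the mean of the other mice, beside 0.01, 0.00 and -0.02 for all genes. Its CV passed 20% for 7 of 10 members, and 4 were at least 1.5-fold lower in mouse 1.

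Genes of the transition from G1 to S phase followed the same order of mice. E2f1, an activating E2F factor, had 576, 902 and 738 normalized counts. Cyclin E activates Cdk2 at the start of S phase and is encoded by a pair of genes. Ccne1 had 96, 260 and 214 normalized counts, and mouse 1 lay 2.47-fold below the mean of the others. Ccne2 had 276, 525 and 413, a 1.70-fold difference. Counting error alone, which leaves out every difference between mice and in handling, would give Ccne1 a CV of 7.29%, and its observed CV was 44.5%. All 3 genes had a CV over 20%, and the median log2 deviation of the list was -0.76 in mouse 1, 0.61 in mouse 2 and 0.04 in mouse 3.

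The widest differences were found among the 22 genes of G2 phase and mitosis, each of which was lowest in mouse 1. Mki67 (ENSMUSG00000031004; minus strand, chr7:135291513-135318090), the gene of the proliferation antigen Ki-67 that coats mitotic chromosomes, had 980, 1683 and 1796 normalized counts in mice 1, 2 and 3, a mean of 1486 ± 442 (SD, n = 3). It was the only gene of this list with its highest value in mouse 3. Top2a (ENSMUSG00000020914; minus strand, chr11:98883769-98915015), the topoisomerase that untangles sister chromatids, had 764, 1581 and 1351, a mean of 1232 ± 421. Mouse 1 lay 1.78-fold below the mean of the others for Mki67 and 1.92-fold below for Top2a. The median log2 deviation of the list was -0.90 in mouse 1, 0.55 in mouse 2 and 0.20 in mouse 3, its CV passed 20% for 21 of 22 genes, and 19 of 22 were at least 1.5-fold lower in mouse 1.

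Among the cyclins and the kinase they activate, Cdk1 had 445, 791 and 654 normalized counts. Ccna2, the cyclin of S and G2 phase, had 879, 1422 and 1255, a 1.52-fold difference between mouse 1 and the mean of the others. Ccnb1, the cyclin that drives entry into mitosis, had 145, 334 and 266, a 2.07-fold difference. Its relative Ccnb2 had 401, 692 and 588, a 1.60-fold difference. The B-type cyclins thus shared the order of mice but not the size of the gap. Per kilobase, Ccnb1 had 98.3 and Ccnb2 356, and the part of duplicate removal in these gaps was not tested.

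Among the members, Plk1, Aurka, Aurkb, Bub1 and Bub1b showed gaps between 1.75-fold and 2.47-fold. Plk1, which triggers centrosome maturation and mitotic entry, had 221, 559 and 460 normalized counts, a 2.31-fold difference. Aurkb, the kinase of the chromosomal passenger complex, had 291, 656 and 579, a 2.12-fold difference. Aurka, which acts at spindle poles, had 281, 555 and 426, and Tpx2, its activator, had 728, 1362 and 1081. Bub1, a kinase of the spindle checkpoint, had 135, 345 and 322, a 2.47-fold difference. Bub1b, which encodes the checkpoint protein BubR1, had 397, 733 and 700, a 1.80-fold difference.

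Motors, kinetochore proteins and factors of cytokinesis held the extreme of the set. Cenpe (ENSMUSG00000045328; plus strand, chr3:134918298-134979372), the kinesin that carries chromosomes to the spindle equator, had 112, 357 and 278 normalized counts, and its 2.83-fold difference and its CV of 50.2% were the largest of the 41 genes. Counting error alone, with no difference between mice or in handling, would give it a CV of 6.37%. Cenpf, a kinetochore protein, had 311, 659 and 552. Kif11, the kinesin that pushes spindle poles apart, had 346, 761 and 718, and the kinesins of the midzone, Kif20a and Kif23, had 318, 665 and 609, and 427, 871 and 733. Prc1, which bundles midzone microtubules, had 612, 1184 and 1095, and Anln, the anillin of the cleavage furrow, had 384, 901 and 794.

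The smallest gaps of the mitotic list belonged to Birc5, Cdc20 and Ube2c. Birc5, which encodes survivin, had 336, 497 and 416 normalized counts, and mouse 1 had 73.6% of the mean of the others. Cdc20 activates the anaphase-promoting complex and had 495, 751 and 615, a 1.38-fold difference. Ube2c, the ubiquitin-conjugating enzyme of that complex, had 332, 525 and 452, a 1.47-fold difference. These were the 3 genes of the list for which mouse 1 was less than 1.5-fold below the others. Per kilobase, Birc5 had 425, Cdc20 335 and Ube2c 451, against a median of 176 for the list. Prc1, with 326, nevertheless had a 1.86-fold difference. The part of duplicate removal in the sizes of these gaps was not tested.

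**Figure D2:**
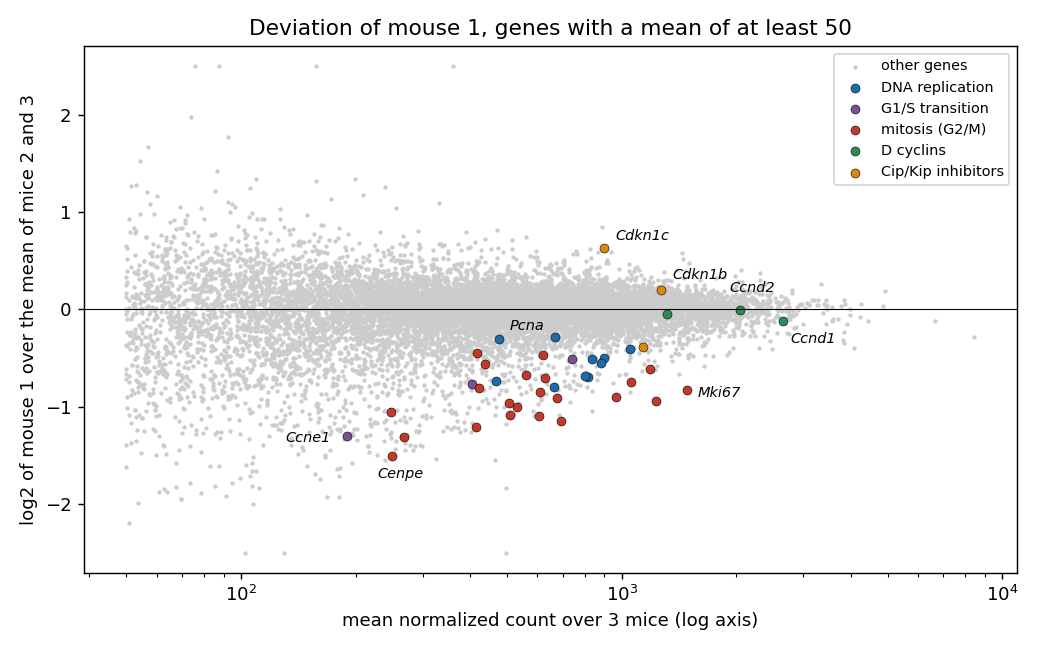
Log2 of the value in mouse 1 over the mean of mice 2 and 3, against the mean normalized count over 3 mice (log axis), for genes with a mean of at least 50. Coloured points are the 41 cell cycle genes by role and grey points are other genes; 7 genes beyond 2.5 in size are drawn at that limit. Genes of mitosis lie between -1.50 and -0.44, and the D cyclins lie near 0.

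D-type cyclins, which answer to mitogens rather than to the phase of the cycle, differed little between mice. Their median level per kilobase was 653, against 176 for mitosis. Whether the removal of duplicate reads held down their differences between mice was not tested. Ccnd1 (ENSMUSG00000070348; minus strand, chr7:144483668-144493662) had 2515, 2841 and 2615 normalized counts, a mean of 2657 ± 167 (SD, n = 3). Ccnd2 (ENSMUSG00000000184; minus strand, chr6:127102125-127129156) had 2039, 2028 and 2071. Its CV of 1.09% was below the 2.21% computed for counting alone, a figure that takes no account of the removal of duplicate reads. Ccnd3 (ENSMUSG00000034165; plus strand, chr17:47815976-47910616) had 1286, 1411 and 1255. None of the 3 had a CV over 20%, as most genes did not (14.9% of all genes had one). Their median CV was 6.27%, against 8.48% for all genes. The median log2 deviation of the list was -0.05 in mouse 1, 0.15 in mouse 2 and -0.03 in mouse 3.

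Inhibitors of the Cip/Kip family, which bind cyclin-dependent kinases and hold cells in G1 phase, did not move together. Cdkn1a, the gene of p21 and a target of p53, had 944, 1261 and 1200 normalized counts and was lowest in mouse 1, as the genes of division were. Cdkn1b, the gene of p27, had 1391, 1253 and 1164, with a CV of 9.01%. Cdkn1c (ENSMUSG00000037664; minus strand, chr7:143012076-143014787), the imprinted gene of p57, had 1179, 713 and 807, a mean of 899.7 ± 246 (SD, n = 3). It was the only member with a value in mouse 1 at least 1.5-fold above the mean of the others, which 1.62% of all genes had. The median log2 deviation of the 3 inhibitors was 0.20 in mouse 1, -0.03 in mouse 2 and -0.18 in mouse 3.

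To compare levels between genes, values were divided by the length of the canonical transcript in kilobases. The median level per kilobase over the mice was 653 ± 40.9 (SD, n = 3) for the D cyclins, 426 ± 61.1 for the Cip/Kip inhibitors, 202 ± 40.3 for replication, 176 ± 63.2 for mitosis and 93.7 ± 36.9 for the transition to S phase, beside 72.7 ± 1.91 for all genes. By mean level per kilobase, Ccnd1 was the highest member with 699.9 ± 44.0 and rank 133 of the 17475 genes with a length. Cenpe was the lowest, with 31.5 ± 15.8 and rank 11079.

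Roles were then compared within each mouse, which removes the scale of the library. The log2 ratio of the median level per kilobase of D cyclins to that of mitosis was 2.60, 1.63 and 1.65 in mice 1, 2 and 3. For the Cip/Kip inhibitors against mitosis it was 2.23, 0.71 and 1.07. Both ratios were above 0 in each mouse and highest in mouse 1, with means of 1.96 and 1.34, or 1.64 and 0.89 without mouse 1. With all annotated exons as the length the means were 1.01 and 1.37, so the D cyclins then lay below the Cip/Kip inhibitors and the order of these roles rested on the length. Replication against mitosis gave 0.59, 0.08 and 0.09, so these lists lay close together in mice 2 and 3, and the mean of 0.25 was smaller than its SD of 0.29 (n = 3).

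A total of 12 pairs of paralogues or partners were compared by their within-mouse log2 ratio per kilobase. The smallest two-sided p of the exact sign-flip permutation test over 3 mice is 0.25, so no pair could pass a threshold. In 10 pairs the ratio had the same sign in every mouse (exact p = 0.25, adjusted p = 0.30 over the 12 pairs by Benjamini-Hochberg). Ccnb1 lay below Ccnb2 with log2 ratios of -2.15, -1.73 and -1.83 in mice 1, 2 and 3. Bub1 lay below Bub1b with -1.46, -0.99 and -1.03, and Aurka lay below Aurkb with -0.74, -0.94 and -1.14. Ccnd1 lay above Ccnd2 with 1.04, 1.22 and 1.07, and Cdk1 lay above Ccnb1 with 0.83, 0.45 and 0.51. These orders also held with all annotated exons as the length and with no division by length. Of their sizes, only that of Bub1 to Bub1b moved by less than its SD under both. With no division by length the mean log2 ratio moved from 1.11 to 0.38 for Ccnd1 to Ccnd2 and from -0.94 to -0.24 for Aurka to Aurkb. It moved from -1.90 to -1.22 for Ccnb1 to Ccnb2 and from 0.59 to 1.39 for Cdk1 to Ccnb1.

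For the other pairs, too, the size or the order rested on the transcript length. Ccnd1 and Ccnd3 differed by a log2 ratio of 0.10 ± 0.05 (SD, n = 3) per kilobase of canonical transcript but by 1.96 with all annotated exons. Ccnd2 against Ccnd3 was -1.01 ± 0.10 and turned to 0.61 with all annotated exons. Rrm1 against Rrm2 was -0.40 ± 0.17 and turned to 0.46 with no division by length. Cdkn1a against Cdkn1b was 1.07 ± 0.34 and turned to -0.58 with all annotated exons, and Cdkn1b against Cdkn1c was -0.71 ± 0.29 and turned to 0.53 with no division by length. The pairs with different signs between mice were Cdkn1a against Cdkn1c, with -0.32, 0.83 and 0.58, and Ccne1 against Ccne2, with -0.20, 0.31 and 0.38 (exact p = 0.5 and adjusted p = 0.5 for each).

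Other lists of genes of the cycle also held genes with low values in mouse 1. Of all genes, 6.18% were at least 1.5-fold lower there, and no test of these lists against that share was run. Of 10 genes of the spindle checkpoint and kinetochore, 7 were at least 1.5-fold lower in mouse 1, with a median log2 deviation of -0.70. Zwint was the highest of them per kilobase (359 ± 25.2, SD, n = 3) and Knl1, a scaffold of the kinetochore, the lowest (27.3 ± 12.7), with counts of 103, 295 and 249. Replicative polymerases and primase had 3 of 6 such genes and a median of -0.68. Pola2 was their highest (414 ± 27.7) and Pole, the catalytic subunit of the leading-strand polymerase, their lowest (29.4 ± 14.4), with counts of 105, 323 and 288. Origin licensing and firing had 6 of 15 and a median of -0.37. Geminin, encoded by Gmnn, was the highest there (408 ± 59.2) and Orc1, the largest subunit of the origin recognition complex, the lowest (30.8 ± 15.7), with counts of 44, 145 and 121.

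Within the origin recognition complex, Orc1 thus lay 3.02-fold lower in mouse 1, whereas Orc3, with 393, 389 and 410 normalized counts, and Orc5, with 344, 325 and 325, differed little. E2F and DP factors had 3 of 9 genes at least 1.5-fold lower in mouse 1 and a median log2 deviation of -0.14. E2f4, a repressor present in resting cells, was the highest per kilobase (413 ± 11.6) and had 820, 852 and 807 normalized counts. E2f3 was the lowest (96.6 ± 11.9). The atypical repressor E2f8, whose own gene is an E2F target, had 222, 521 and 473. Of the MuvB core and its partners, 2 of 7 met the rule, and the median was -0.33. These were Mybl2, which encodes B-Myb, with 151, 376 and 339, and Foxm1, with 491, 1011 and 1006. Mybl2 was the lowest of the list per kilobase (75.4 ± 31.5) and Rbbp4, which also serves chromatin complexes, the highest (283 ± 14.5), with 1213, 1321 and 1208. Orc3, Orc5, E2f8 and Foxm1 were chosen after their values were seen.

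In further lists few or no genes met the rule of 1.5-fold, which 6.18% of all genes met in mouse 1, and no test against that share, or against the 14.9% with a CV over 20%, was run for them. None of the 15 genes of the anaphase-promoting complex was 1.5-fold lower in mouse 1 and none had a CV over 20%, with a median log2 deviation of -0.07; Anapc15 was the highest per kilobase (652 ± 22.2) and Anapc10 the lowest (47.1 ± 4.38). The 4 cyclin-dependent kinases Cdk2, Cdk4, Cdk6 and Cdk7 had no gene 1.5-fold lower in mouse 1 and a median of -0.17, and Cdk6 had a CV over 20%. Cdk4, the partner of the D cyclins, was their highest (393 ± 26.2), with 780, 881 and 795 normalized counts, and Cdk6 their lowest (52.7 ± 10.8), with 469, 676 and 697. Pocket proteins, which restrain E2F, had none of 3 and a median of -0.13, with Rbl1 highest (134 ± 20.6) and Rbl2 lowest (122 ± 7.91). Ink4 inhibitors of Cdk4 and Cdk6 had 1 of 4, which was Cdkn2a with 71, 105 and 117 normalized counts, and a median of -0.26. Cdkn2c was their highest (351 ± 52.1) and Cdkn2b their lowest (22.9 ± 2.24). Of p53 and its targets, 1 of 10 met the rule and the median was -0.10. That gene, Sesn2, was also the lowest of them (75.8 ± 23.0), and Bax was the highest (444 ± 26.0). Cdkn1a, with a log2 deviation of -0.38 in mouse 1, lay within the range of the p53 list, from -0.84 for Sesn2 to 0.38 for Gadd45a, which was chosen after its values were seen.

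Markers of several other cell types also differed between mouse 1 and the others, and their part in the low values of the replication and mitosis genes was not tested. Leukocyte markers had a summed level of 447, 681 and 681 in mice 1, 2 and 3, with 7 of 9 listed. Lyz2 was the most abundant with 188, 224 and 240, Ptprc had 94, 190 and 154, and Cd3e and S100a8 were not listed, so they lie below the floor of the table, in which no gene has all its values under 4. Cd79a had 1, 10 and 0. Fibroblast markers, with 7 of 7 listed, summed to 3031, 3941 and 4141, and 4 of them were lower in mouse 3 than in mouse 2, as were 53.5% of all genes. Dcn was their most abundant gene, with 813, 579 and 1007, and Postn, which activated fibroblasts make, had 344, 741 and 671. Mural markers, with 6 of 6 listed, summed to 1124, 1495 and 1540. Rgs5 was the most abundant with 542, 615 and 505, and Myh11, of smooth muscle, was the lowest per kilobase, with 31, 118 and 240 and the largest gap of the list in mouse 1. Kcnj8 was highest in mouse 1, with 138, 85 and 119. Ptprc, Postn and Kcnj8 were chosen after their values were seen.

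Lymphatic endothelial markers summed to 2583, 3252 and 3735, with 4 of 4 listed. Each was lowest in mouse 1 (33.2% of all genes), and Flt4 was the most abundant with 1396, 1628 and 1898. Endocardial markers summed to 3358, 2602 and 4721, with 3 of 3 listed and Npr3 the most abundant at 1589, 914 and 2228, and so had their lowest sum in mouse 2. Of the 3, 2 were lowest in mouse 2, whereas Nfatc1, with 1305, 1386 and 1658, was lowest in mouse 1. Nfatc1 was chosen after its values were seen. Erythroid markers, of which 5 were listed, summed to 331, 334 and 369 and were led by Hbb-bs with 121, 118 and 119.

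Because genes of replication and mitosis moved together, their promoters were compared. RefSeq promoters of GRCm38.p6, which run from 250 bases before to 50 bases after the start of transcription, were matched by symbol for 32 of 41 members (36 promoters). Those of Aurkb, Ccna2, Ccnd1, Ccnd2, Ccne2, Cdkn1c, Kif20a, Mcm4 and Tpx2 were missing. Searched on both strands, with overlaps allowed, were CCAAT, the box bound by NF-Y, TTTGAA or TTTAAA, the core of the cell cycle homology region, and TTTCGCGC, TTTGGCGC or TTTCCCGC, forms of the E2F site. Among 19 promoters of mitosis genes, 17 held CCAAT, 18 held TTTGAA or TTTAAA and 16 held both, beside 37.4%, 27.6% and 10.7% of all 32851 promoters. Only that of Cdk1 held an E2F form. Among 10 promoters of replication genes, 9 held CCAAT, 3 held TTTGAA or TTTAAA, and 4, those of Mcm3, Mcm5, Mcm6 and Mcm7, held an E2F form, beside 1.84% of all promoters. These letters are a description of the windows and do not show that a factor binds there.

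The 120 bases before the start of transcription are shown for mitosis genes that held both kinds of motif. Capitals mark the letters CCAAT and the pair TTTGAA or TTTAAA, each also where it lies on the other strand. Cdk1 lies on the minus strand at chr10:69352913-69353032 (GRCm38.p6), Ccnb1 on the minus strand at chr13:100786487-100786606, Plk1 on the plus strand at chr7:122159315-122159434 and Top2a on the minus strand at chr11:99024190-99024309.
Cdk1: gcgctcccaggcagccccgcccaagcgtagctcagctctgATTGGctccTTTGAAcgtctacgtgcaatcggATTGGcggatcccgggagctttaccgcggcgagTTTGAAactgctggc
Ccnb1: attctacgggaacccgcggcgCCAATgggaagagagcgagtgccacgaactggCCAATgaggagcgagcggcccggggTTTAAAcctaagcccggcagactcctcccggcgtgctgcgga
Plk1: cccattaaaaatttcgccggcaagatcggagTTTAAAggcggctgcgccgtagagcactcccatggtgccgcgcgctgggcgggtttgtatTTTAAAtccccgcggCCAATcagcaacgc
Top2a: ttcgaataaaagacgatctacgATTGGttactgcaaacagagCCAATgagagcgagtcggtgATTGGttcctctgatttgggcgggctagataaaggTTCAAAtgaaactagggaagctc

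For contrast, the same stretch is shown for replication genes whose promoters held CCAAT, in capitals, but neither TTTGAA nor TTTAAA. These are Mcm3 (minus strand, chr1:20820313-20820432) and Pcna (minus strand, chr2:132253181-132253300).
Mcm3: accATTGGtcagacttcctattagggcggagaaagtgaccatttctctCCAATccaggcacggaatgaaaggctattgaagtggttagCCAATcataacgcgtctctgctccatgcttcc
Pcna: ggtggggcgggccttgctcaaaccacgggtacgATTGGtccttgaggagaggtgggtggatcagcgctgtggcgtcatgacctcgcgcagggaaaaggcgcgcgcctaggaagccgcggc
The promoters of E2f1 and Ccne1 held no CCAAT, and that of Ccne1 held TTTGAA or TTTAAA. The promoters of the D cyclins that were matched, both of Ccnd3, held neither TTTGAA nor TTTAAA, and 1 of the 2 held CCAAT. Among the 3 promoters of Cdkn1a and Cdkn1b, that of Cdkn1b held both kinds of motif.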

How the data were processed

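Ribosome-associated RNA of 3 EC-RiboTag mouse hearts was sequenced from a single end over 72 bases. Per the submitters' processing notes and the study's methods, the authors trimmed reads with Trimmomatic 0.39, aligned them with STAR 2.7.11a to GRCm39 (mm39), removed duplicate, multi-mapping, ribosomal and mitochondrial reads with the help of Picard 3.1.1, and counted exonic reads by strand with featureCounts 2.0.4. The deposited value is a score: the authors divided each count by a DESeq2 1.36.0 size factor and rounded the result to a whole number, so raw depth is not given and no count model was used.

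From these values the level, SD and CV of each gene were computed with Python 3.11.15, numpy 2.4.6 and pandas 2.3.3, and figures were drawn with matplotlib 3.10.9. Lengths were those of canonical GENCODE transcripts of GRCm39, found for 17475 genes (99.4%). Counting spread was derived from the estimated worth of 1 read, an estimate tested on simulated data. It takes no account of the removal of duplicate reads. Exact copies of 72 bases were sought with BLAST 2.17.0. Of the members, 35 had no such copy, Tyms had the most, and the others had copies in under 1% of windows. Calls used a mean of at least 50 with a CV over 20%, the mouse with the highest value, and, added after the data were seen, the mouse with the lowest value, a fold of 1.5 against the mean of the other mice, and mouse 3 below mouse 2. Ratios within a mouse were tested by exact sign-flip permutation over mice. Named genes were all members, and of each other list the genes highest and lowest per kilobase and those not listed; a marker gene is not reported here. Members and lists were chosen with earlier results of these data known. Alternatives were scaling by trimmed means (TMM), equal totals, other minima, other lengths and leaving out each mouse.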

Additional observations from a re-analysis of the deposited data

How the results depend on the processing

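Under TMM scaling, equal totals and minimum means of 20 or 200, the counts of members by mouse and by CV stayed within 1.5 times their values, except that 1 member in place of 2 was highest in mouse 3 under equal totals. With a CV over 30%, 18 members varied in place of 32, and leaving out a mouse gave between 0 and 35, with 0 without mouse 1. With a fold of 2, 9 members were lower in mouse 1 in place of 25, and against a single other mouse there were 19 to 31. A fold of 1.2 gave 1 member lower in mouse 2, and against a single other mouse 0 to 1 were 1.5-fold lower there. These folds and comparisons with a single mouse were chosen after seeing the data. All 30 rescaled median deviations kept their sign.

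The log2 ratio of D cyclins to mitosis fell from 1.96 to 1.01 with all annotated exons; the 17 other alternatives for the ratios between lists moved by less than their SD. Of 60 alternatives for the pairs, 40 moved by less than the SD, 11 moved further and 9 turned direction. With all annotated exons the log2 ratio turned to 0.61 for Ccnd2 to Ccnd3, -0.58 for Cdkn1a to Cdkn1b, -1.13 for Cdkn1a to Cdkn1c and -0.53 for Ccne1 to Ccne2. With no division by length it turned to 0.64 for Ccnd2 to Ccnd3, -0.17 for Cdkn1a to Cdkn1b, 0.53 for Cdkn1b to Cdkn1c, -1.16 for Ccne1 to Ccne2 and 0.46 for Rrm1 to Rrm2. The lengths themselves set these shifts. No paired analysis was possible because there was a single group, so no groups could be paired; the gene pairs were compared within mice. Raw depth is not given and was only estimated, and with 3 mice of a single condition, differences between mice have no replicate.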
